A study of Mus musculus with 30 samples.

Results

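The breakdown of the branched-chain amino acids leucine, isoleucine and valine was followed through 10 genes: Bcat2, Bckdha, Bckdhb, Dbt, Bckdk, Ivd, Mccc1, Mccc2, Hibch and Hibadh. They were chosen by name, as the genes annotated to these symbols on the array, out of 18781 genes with a probe set that names a single gene. Male C57Bl/6 mice (of the J substrain, by the study's methods) aged 10 to 12 weeks, on normal chow, were left without food for 24 h (fasted) or kept on food ad libitum (fed), and RNA from skeletal muscle (SM), from the epididymal depot of white fat (WAT) and from liver (LIV) was hybridised to Affymetrix Mouse Gene 1.1 ST arrays. Each of the 6 groups (fasted WAT, fasted LIV, fasted SM, fed WAT, fed LIV and fed SM) held 5 biological replicates, numbered 1 to 5 in the labels. By the study's text the RNA came from 5 fasted and 5 fed mice, so the tissues of a diet share animals. The labels do not say which arrays share a mouse, and the main fit treated all arrays as independent. Values are log2 expression per probe set after robust multi-array average (RMA) normalization by the authors, so that a difference of 1 is 2-fold, and levels are compared within a gene and not between genes.

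Branched-chain amino acids first lose their amino group to a transaminase, Bcat2 in mitochondria and Bcat1 in the cytosol, which leaves branched-chain keto acids. The branched-chain keto acid dehydrogenase complex then decarboxylates these irreversibly. Bckdha and Bckdhb are the alpha and beta subunits of its decarboxylase, Dbt is its transacylase core, and Dld is a subunit that other dehydrogenase complexes use too. The kinase Bckdk phosphorylates the alpha subunit and switches the complex off, and the phosphatase Ppm1k reverses this. Thereafter the 3 amino acids take separate routes: leucine through Ivd, isovaleryl-CoA dehydrogenase, and Mccc1 and Mccc2, the alpha and beta subunits of the biotin-dependent methylcrotonyl-CoA carboxylase, and valine through Hibch, the hydrolase that frees 3-hydroxyisobutyrate from coenzyme A, and Hibadh, the dehydrogenase that oxidises it. Liver is known for little transaminase and an active dehydrogenase complex, whereas muscle and fat are known to transaminate these amino acids.

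The arrays fed LIV 4 and fasted SM 5 stood apart and were left out of the fit, which leaves 28 arrays. The mean Pearson r of fasted SM 5 with the other arrays of its group was 0.980, against 0.991 to 0.992 for fasted SM 1 to 4, and that of fed LIV 4 was 0.987, against 0.991 to 0.993 for the other fed livers. Fasted SM 5 also had a mean of 7.82 over 8 lymphocyte markers, against 3.96 to 4.24 on all other SM arrays. Fed LIV 4 lay outside the range of the other 4 fed livers for 9 of the 10 genes, among them Bckdha (10.40, against 9.86 to 9.98), Bcat2 (8.19, against 7.68 to 7.89) and Dbt (9.92, against 10.26 to 10.36). Fasted SM 5 lay outside the range of fasted SM 1 to 4 for 4 of the 10 genes. The share over all genes was not counted, so these 2 counts only describe the arrays. Fasted SM 3 was kept although its mean over 4 epididymis markers was 5.55, against 3.43 to 3.63 on all other SM arrays. The tissues held their defining markers: 8 adipocyte markers averaged 11.47 to 12.10 on WAT arrays and 5.56 to 5.99 on the LIV arrays, 9 hepatocyte markers 12.19 to 12.34 on LIV arrays and 3.99 to 5.06 elsewhere, and 12 muscle fibre markers 12.41 to 12.57 on SM arrays and 4.01 to 4.87 elsewhere. A change was called at an adjusted p under 0.05 (limma, Benjamini-Hochberg over all 28815 probe sets) and at least 1.3-fold.

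**Figure D1:**
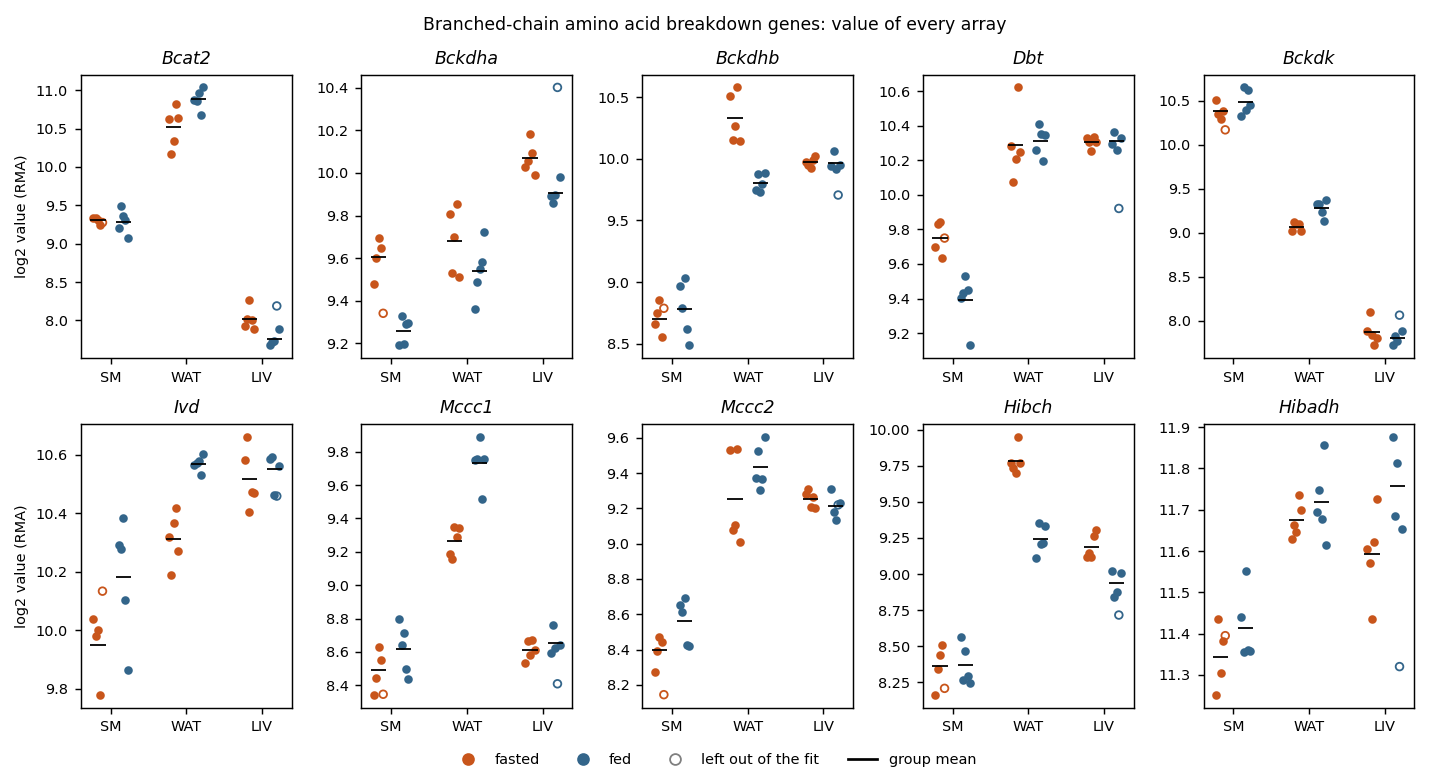
Log2 value (y axis, scaled per gene) of every array for the 10 genes in SM, WAT and LIV (x axis), with fasted arrays left of fed arrays, group means as bars and the left-out arrays fed LIV 4 and fasted SM 5 as open circles. Bckdhb and Hibch lie higher and Mccc1 lower in fasted WAT than in fed WAT with no overlap, whereas differences between tissues exceed those between diets for Bcat2 and Bckdk.

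In WAT, fasting moved the 10 genes in both directions. Bckdhb and Hibch rose 1.44-fold and 1.46-fold, Mccc1 fell to 0.72 of its fed level, and the other 7 genes were not called. This is 2 of 10 genes up and 1 of 10 down, where 7.99% of all genes tested rose and 7.75% fell. The median change of the 10 genes was −0.11, against 0.01 for all genes. A tissue sample cannot tell fewer cells of a type apart from less RNA per cell, here and in all results that follow.

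Bckdhb, the beta subunit of the decarboxylase, read 10.51, 10.15, 10.26, 10.58 and 10.14 in fasted WAT, against 9.75, 9.87, 9.73, 9.79 and 9.88 in fed WAT. All 5 fasted arrays lay above all 5 fed arrays, and fasted arrays 1 and 4 were the highest. The change was 0.52 (SE 0.09, 95% confidence interval 0.34 to 0.71, adjusted p 5.288e-05). Hibch of the valine route read 9.77, 9.74, 9.70, 9.95 and 9.77 in fasted WAT, against 9.11, 9.36, 9.21, 9.21 and 9.33 in fed WAT. Again the ranges did not overlap, and fasted array 4 stood highest. Hibch changed by 0.54 (SE 0.07, interval 0.39 to 0.69, adjusted p 1.508e-06). Mccc1 of the leucine route read 9.18, 9.16, 9.35, 9.29 and 9.34 in fasted WAT, against 9.75, 9.76, 9.89, 9.52 and 9.76 in fed WAT. Here every fasted array lay below every fed array, with fed array 4 the lowest of the fed arrays. Mccc1 fell by 0.47 (SE 0.07, interval −0.61 to −0.32, adjusted p 9.308e-06). Leaving out any 1 array kept these 3 calls, with changes between 0.46 and 0.57 for Bckdhb, between 0.50 and 0.57 for Hibch and between −0.52 and −0.43 for Mccc1. None of the 3 reached 1.5-fold.

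The promoters of these 3 genes are shown because they are the members called in fasted WAT, up (Bckdhb, Hibch) and down (Mccc1). Each is the RefSeq window of 300 bases in GRCm38.p6, read 5′ to 3′ on the strand of the gene, from 250 bases before to 50 bases after a start: chr9:83924887-83925186 on the plus strand, the first of 2 starts listed for Bckdhb, chr1:52844788-52845087 on the plus strand for Hibch, and chr3:36000629-36000928 on the minus strand for Mccc1. Capitals mark 2 motifs on either strand, the CCAAT box (CCAAT or ATTGG) and the GC box (GGGCGG or CCGCCC).
Bckdhb: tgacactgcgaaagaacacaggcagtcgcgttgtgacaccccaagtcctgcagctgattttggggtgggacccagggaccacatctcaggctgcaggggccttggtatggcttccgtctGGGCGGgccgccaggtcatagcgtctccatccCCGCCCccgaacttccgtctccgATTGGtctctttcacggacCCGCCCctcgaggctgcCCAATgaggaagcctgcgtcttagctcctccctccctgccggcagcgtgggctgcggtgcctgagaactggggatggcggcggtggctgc
Hibch: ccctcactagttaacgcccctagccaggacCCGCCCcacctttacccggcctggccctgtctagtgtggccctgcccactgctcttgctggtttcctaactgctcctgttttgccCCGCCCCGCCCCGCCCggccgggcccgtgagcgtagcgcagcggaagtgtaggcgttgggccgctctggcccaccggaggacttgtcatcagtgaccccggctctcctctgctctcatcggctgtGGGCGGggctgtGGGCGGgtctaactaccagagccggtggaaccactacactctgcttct
Mccc1: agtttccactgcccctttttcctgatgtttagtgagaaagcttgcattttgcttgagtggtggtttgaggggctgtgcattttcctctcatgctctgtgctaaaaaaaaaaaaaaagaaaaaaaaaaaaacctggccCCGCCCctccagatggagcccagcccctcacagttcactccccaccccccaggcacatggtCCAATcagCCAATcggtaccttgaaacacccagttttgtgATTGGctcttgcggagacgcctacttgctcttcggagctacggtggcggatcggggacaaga
Bckdhb held 3 GC boxes and 2 CCAAT boxes in this window, Hibch 6 GC boxes and 0 CCAAT boxes, and Mccc1 1 GC box and 3 CCAAT boxes, which begin 52, 44 and 12 bases before the start. Adjoining GC boxes of Hibch share a base, at 116, 121 and 126 bases from the 5′ end of the window. Of all 32851 windows in the table, 37.4% held a CCAAT box and 35.7% a GC box, and of the 11 windows of 9 of the 10 genes 7 held a CCAAT box and 4 a GC box. The other 4 motifs searched were the estrogen-related receptor element TCAAGGTCA (0 of 11 windows, 0.42% of all), the NRF1 core GCGCATGCG (0 of 11, 1.75% of all), the FoxO element TGTTTAC (1 of 11, in Hibadh, 3.65% of all) and the E-box CACGTG (1 of 11, in Mccc2, 7.15% of all), each on both strands. These are matches of letters and not sites of binding.

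Further members in WAT passed the adjusted p without reaching 1.3-fold. Bcat2, the transaminase, read 10.62, 10.17, 10.34, 10.81 and 10.64 in fasted WAT, against 10.87, 10.86, 10.97, 10.68 and 11.04 in fed WAT. The groups overlapped through fasted array 4 and fed array 4. The difference was −0.36 (SE 0.10, adjusted p 0.005257), 0.78 of the fed level, and it became a call without fed WAT 4 (−0.41) or without fasted WAT 1 (−0.39), 4 (−0.44) or 5 (−0.39). Ivd, the leucine route dehydrogenase, read 10.32, 10.19, 10.37, 10.42 and 10.27 in fasted WAT, against 10.57, 10.57, 10.58, 10.53 and 10.60 in fed WAT. Bckdk, the kinase, read 9.03, 9.12, 9.10, 9.10 and 9.02 in fasted WAT, against 9.32, 9.33, 9.24, 9.14 and 9.37 in fed WAT. For both genes all fasted arrays lay below all fed arrays, with differences of −0.26 (SE 0.07, adjusted p 0.009851) and −0.21 (SE 0.07, adjusted p 0.02300). Bckdk did not pass in every fit. Its adjusted p by limma was 0.05689 with the replicate number within tissue as a block, and up to 0.06415 with single arrays left out. In all, 5 of the 10 genes had fasted and fed WAT arrays that did not overlap, where this held for 21.6% of all genes.

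The remaining 4 members did not pass the adjusted p in WAT. Bckdha averaged 9.68 ± 0.16 in fasted WAT and 9.54 ± 0.13 in fed WAT (SD, n = 5 each), Dbt 10.29 ± 0.20 and 10.31 ± 0.08, Mccc2 9.25 ± 0.26 and 9.43 ± 0.13, and Hibadh 11.67 ± 0.04 and 11.72 ± 0.09, in each case fasted before fed. The intervals of their changes were −0.00 to 0.28 for Bckdha, −0.19 to 0.13 for Dbt, −0.36 to −0.00 for Mccc2 and −0.17 to 0.08 for Hibadh. Their partners in the same complexes, Bckdhb and Mccc1, were called, while Dbt had a change of −0.03 (adjusted p 0.8857) and Mccc2 of −0.18 (adjusted p 0.1416). Whether the changes differ between subunits was not tested. Fasted WAT was also spread unevenly. Mccc2 read 9.53 and 9.54 on fasted arrays 1 and 4 but 9.08, 9.11 and 9.01 on fasted arrays 2, 3 and 5, and Bckdha, Bckdhb and Dbt had their 2 highest fasted values on the same arrays 1 and 4.

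Markers moved with diet in WAT as well. The mean of the 8 adipocyte markers was 11.47 to 11.90 in fasted WAT and 11.91 to 12.10 in fed WAT, with 1 of 8 called (Lep, leptin, which fell by 1.93) and a median change of 0.07. Plin1 had −0.31 and was not called, and the rest lay between 0.02 (Lipe) and 0.21 (Fabp4), so this list mean follows Lep. The lowest mean, 11.47, was that of fasted WAT 4, against 11.81 to 11.90 on the other fasted arrays. Fasted WAT 4 also read highest in its group for Bckdhb, Dbt, Mccc2 and Hibch, among others. Of 7 macrophage markers 2 rose, and the mean of the list was 8.55 to 9.11 in fasted WAT and 8.46 to 8.66 in fed WAT. Of 15 other mitochondrial genes, 13 for the citrate cycle, the respiratory chain or ATP synthase plus the channel Vdac1 and the transcription factor Tfam, 5 fell and 0 rose, among them Cs, citrate synthase (−0.51), and the list averaged 9.74 to 9.82 in fasted WAT and 9.90 to 10.14 in fed WAT. Of 5 brown adipocyte markers 2 fell, Cidea by 1.08 and Cox8b by 1.07, with a list mean of 4.35 to 4.49 in fasted WAT and 4.75 to 4.97 in fed WAT. Ucp1 (0.035), Elovl3 (0.05) and Dio2 (−0.10) of this list were not called and averaged only 3.06 to 3.97 in fed WAT, so the list mean follows Cidea and Cox8b. Single genes of other lists rose: Acta1 of the muscle fibre markers by 1.53, Alas2 of the erythroid markers by 0.73, Wt1 of the mesothelial markers by 0.62 and Tat of the hepatocyte markers by 0.54. The part of these shifts in the results on the 10 genes was not tested.

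**Figure D2:**
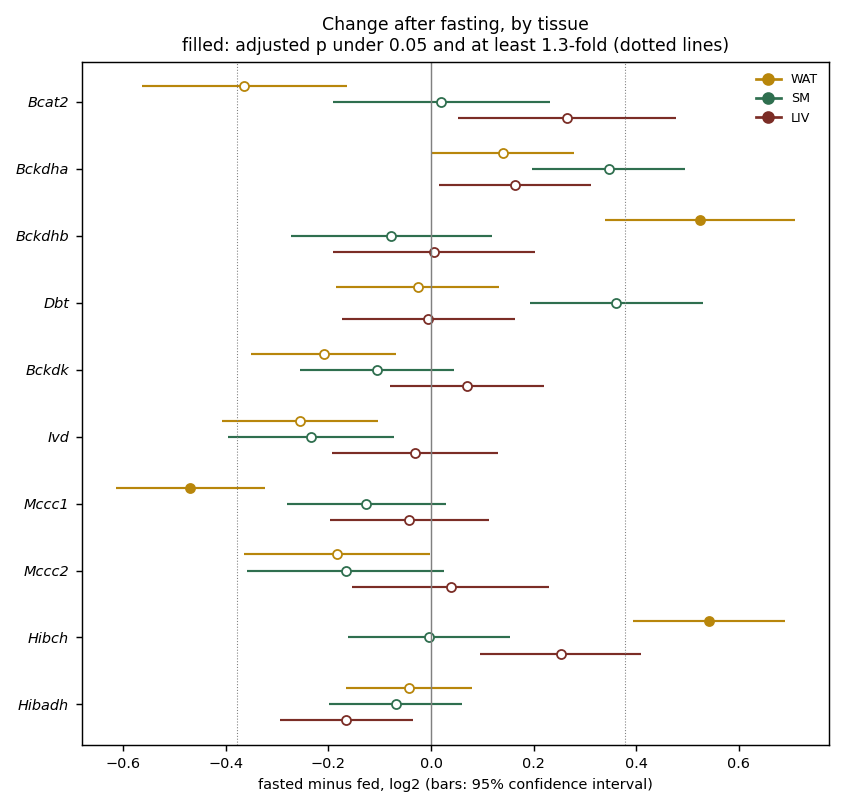
Fasted minus fed difference on the log2 scale (x axis) with 95% confidence interval for each of the 10 genes (y axis) in WAT, SM and LIV. Filled points passed the adjusted p and 1.3-fold, which held for Bckdhb, Hibch and Mccc1 in WAT and for 0 genes in SM or LIV.

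In LIV, 0 of the 10 genes were called by limma, where 3.53% of all genes rose and 4.01% fell. An unadjusted p under 0.05 was reached by 4 genes, and a fit without moderated variances also called 0. Hibch came closest: it read 9.12, 9.15, 9.12, 9.26 and 9.30 in fasted LIV, against 9.02, 8.84, 8.88 and 9.01 in the 4 fed LIV arrays used. The fasted arrays all lay above the fed ones, with a difference of 0.25 (SE 0.08, interval 0.09 to 0.41, adjusted p 0.02701), 1.19-fold. Bcat2 read 7.93, 8.02, 8.27, 8.0 and 7.89 in fasted LIV, against 7.68, 7.72, 7.73 and 7.89 in fed LIV. The lowest fasted and the highest fed array nearly met, and the difference of 0.27 (SE 0.10) did not pass (adjusted p 0.09317). With fed LIV 4 included, at 8.19, the groups overlapped and the difference was 0.18 (adjusted p 0.3342). Bckdha averaged 10.07 ± 0.07 in fasted LIV (n = 5) and 9.91 ± 0.05 in fed LIV (n = 4), and its difference of 0.16 (adjusted p 0.1469) was 0.07 with fed LIV 4 included, at 10.40. In all, 3 of the 10 genes did not overlap between fasted and fed LIV, where 17.3% of all genes did not. For the other 7 genes the differences lay between −0.17 (Hibadh) and 0.07 (Bckdk), and Dbt had the narrowest spread, 10.25 to 10.33 in fasted LIV and 10.26 to 10.36 in fed LIV.

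In SM, 0 of the 10 genes were called by limma either, where 7.8% of all genes rose and 5.78% fell. A fit without moderated variances called 0, and 3 genes had an unadjusted p under 0.05. These 3 also passed the adjusted p: Dbt and Bckdha, both of the dehydrogenase complex, were higher in fasted SM and Ivd was lower, by less than 1.3-fold. Dbt read 9.70, 9.83, 9.84 and 9.63 in fasted SM, against 9.40, 9.43, 9.53, 9.45 and 9.13 in fed SM. Bckdha read 9.48, 9.60, 9.69 and 9.65 in fasted SM, against 9.19, 9.33, 9.20, 9.29 and 9.29 in fed SM. For both genes every fasted array lay above every fed array, and the left-out array fasted SM 5, at 9.75 and 9.34, did so too. Fasted SM 3, the array with the raised epididymis markers, read highest of the fasted arrays for both. Leaving out any 1 array gave differences of 0.30 to 0.40 for Dbt and 0.32 to 0.39 for Bckdha. The differences were 0.36 for Dbt (SE 0.08, interval 0.19 to 0.53, adjusted p 0.001549), 1.28-fold, and 0.35 for Bckdha (SE 0.07, interval 0.20 to 0.49, adjusted p 6.518e-04), 1.27-fold. Dbt passed 1.3-fold without fed SM 3 (0.40), fasted SM 1 (0.38) or fasted SM 4 (0.40), and Bckdha without fasted SM 1 (0.39). These were the 2 genes of 10 that did not overlap between fasted and fed SM, where 22.9% of all genes did not.

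Bckdhb, whose product pairs with that of Bckdha, read 8.66, 8.75, 8.85 and 8.55 in fasted SM, against 8.97, 8.79, 9.04, 8.62 and 8.49 in fed SM. The fasted values lay inside the fed range, and the difference was −0.08 (interval −0.27 to 0.12). Ivd read 10.04, 9.98, 10.00 and 9.78 in fasted SM, against 10.29, 10.28, 10.38, 10.10 and 9.86 in fed SM. The groups overlapped, with a difference of −0.23 (SE 0.08, adjusted p 0.03139) that no longer passed with all 30 arrays (−0.20, adjusted p 0.06845). The other 6 genes differed by −0.17 (Mccc2) to 0.02 (Bcat2), with adjusted p between 0.2316 and 0.9819.

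Muscle arrays were uneven in fibre type and fat. The mean of 7 slow fibre markers was 7.55 to 8.96 in fasted SM and 4.79 to 9.35 in fed SM, and that of the adipocyte markers 7.55 to 8.48 in fasted SM and 7.49 to 9.64 in fed SM, with 3 of 8 adipocyte markers called lower. In a fit of SM alone with the slow fibre mean as a covariate the differences were 0.35 for Bckdha and 0.34 for Dbt, and with the adipocyte mean 0.31 for Bckdha and 0.40 for Dbt, which made Dbt a call (adjusted p 0.01402). For Ivd they were −0.28 and −0.12, of which neither passed (adjusted p 0.0693 and 0.4269). The adipocyte list holds Lep, which was lower in fasted SM (−1.66) and in fasted WAT (−1.93). Plin1 (−1.25) and Retn (−1.14) were also called lower in SM, but not in WAT (−0.31 and 0.07). The mean of the list can thus change with diet as well as with fat content, and the part of each was not tested.

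Fasting changes were then compared between tissues, as the difference of 2 fasted minus fed changes. Between WAT and LIV, 3 of the 10 genes differed, where 16.1% of all genes did. Bcat2 changed by −0.36 in WAT and by 0.27 in LIV, a difference of −0.63 (SE 0.14, interval −0.92 to −0.34, adjusted p 0.002007), although its change passed the threshold in neither tissue. For Bckdhb the change was 0.52 in WAT and 0.01 in LIV (difference 0.52, SE 0.13, adjusted p 0.005679), and for Mccc1 −0.47 in WAT and −0.04 in LIV (difference −0.43, SE 0.10, adjusted p 0.003916). Hibch was not called different between WAT and LIV (0.54 and 0.25, difference 0.29, interval 0.07 to 0.51, adjusted p 0.05835). These calls held without any 1 array.

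Between WAT and SM, 3 of 10 genes differed too, where 15.1% of all genes did. Bckdhb changed by 0.52 in WAT and by −0.08 in SM, a difference of 0.60 (SE 0.13, adjusted p 0.001555), and Hibch by 0.54 in WAT and by −0.00 in SM, a difference of 0.55 (SE 0.11, adjusted p 4.526e-04). Dbt went the other way, with −0.03 in WAT and 0.36 in SM (difference −0.39, SE 0.11, adjusted p 0.01656). That difference lay close to 1.3-fold and fell short of it without any 1 of 8 arrays (fed WAT 2 or 3, fasted WAT 2, 3 or 5, fed SM 5, fasted SM 2 or 3), with −0.32 as the smallest size, without fed SM 5. Mccc1 (−0.34, adjusted p 0.02104) stayed under 1.3-fold and passed it without fed WAT 4, fed SM 1 or fasted SM 1 (−0.40 to −0.39). Bcat2 (−0.38, adjusted p 0.06295) passed both thresholds without fed WAT 4, fasted WAT 4 or fed SM 2 (−0.46 to −0.43). Between SM and LIV, 0 of 10 genes differed by limma, where 15.3% of all genes did, 2 had an unadjusted p under 0.05, and a fit without moderated variances called 0. Dbt had a difference of 0.37 there (SE 0.12, adjusted p 0.02871), just under 1.3-fold, which passed it without fed LIV 3, fed SM 3 or 4, or fasted SM 1 or 4 (0.38 to 0.41), and with fasted SM 1 left out in place of fasted SM 5 (0.38). WAT enters both comparisons that involve it, so their calls share arrays, and by the study's text the tissues of a diet also share mice.

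In fed mice the transaminase and the kinase differed most in level between tissues. Bcat2 averaged 9.29 ± 0.16 in fed SM (n = 5), 10.88 ± 0.14 in fed WAT (n = 5) and 7.76 ± 0.09 in fed LIV (SD, n = 4). The 3 ranges were apart, and fed WAT exceeded fed LIV by 3.12 (SE 0.10), 8.72-fold, and fed SM exceeded fed LIV by 1.53 (SE 0.10), 2.89-fold. The kinase Bckdk had another order, 10.49 ± 0.14 in fed SM, 9.28 ± 0.09 in fed WAT and 7.80 ± 0.07 in fed LIV. Its ranges did not meet either, with fed SM above fed LIV by 2.69 (SE 0.07), 6.47-fold, and above fed WAT by 1.21 (SE 0.07), 2.32-fold. Both the transaminase and the kinase were thus lowest in LIV.

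Bckdha, Bckdhb and Dbt had their lowest fed means in SM, whereas the shared subunit Dld had its highest there (10.30 ± 0.06 in fed SM, 9.26 ± 0.11 in fed WAT and 9.15 ± 0.08 in fed LIV). Bckdhb averaged 8.78 ± 0.23 in fed SM, 9.80 ± 0.07 in fed WAT and 9.97 ± 0.07 in fed LIV, and Dbt 9.39 ± 0.15, 10.31 ± 0.08 and 10.31 ± 0.04 in the same order. Fed SM lay below fed LIV by 1.19 for Bckdhb (log2 difference −1.19, SE 0.10) and by 0.92 for Dbt (−0.92, SE 0.08), whereas fed WAT and fed LIV did not differ beyond their spread (−0.16 with adjusted p 0.1562, and 0.00 with adjusted p 0.9916). Bckdha averaged 9.26 ± 0.06 in fed SM, 9.54 ± 0.13 in fed WAT and 9.91 ± 0.05 in fed LIV, with fed SM below fed LIV by 0.65 (−0.65, SE 0.07). Its fed WAT minus fed LIV difference of −0.37 passed the adjusted p (7.796e-05) but not 1.3-fold.

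Of the leucine route, Mccc1 stood out in WAT: 8.62 ± 0.15 in fed SM, 9.73 ± 0.13 in fed WAT and 8.66 ± 0.07 in fed LIV, which put fed WAT 1.08 above fed LIV (SE 0.08), while fed SM and fed LIV did not differ beyond their spread (−0.04, adjusted p 0.6952). Its partner Mccc2 had 8.56 ± 0.13 in fed SM, 9.43 ± 0.13 in fed WAT and 9.21 ± 0.08 in fed LIV, so that fed WAT and fed LIV lay within 0.22 of each other and fed SM lay below both. Hibch of the valine route had 8.37 ± 0.14 in fed SM, 9.24 ± 0.10 in fed WAT and 8.94 ± 0.09 in fed LIV, with fed SM below fed LIV (−0.57, SE 0.08) and below fed WAT (−0.88, SE 0.07). Ivd and Hibadh varied least: Ivd averaged 10.18 ± 0.21 in fed SM, 10.57 ± 0.03 in fed WAT and 10.55 ± 0.06 in fed LIV, and Hibadh 11.41 ± 0.09, 11.72 ± 0.09 and 11.76 ± 0.11. Of these 2 genes only the fed SM minus fed WAT difference of Ivd was called (−0.39, SE 0.07), and it dropped under 1.3-fold without fed WAT 5, fed SM 4 or fed SM 5.

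**Figure D3:**
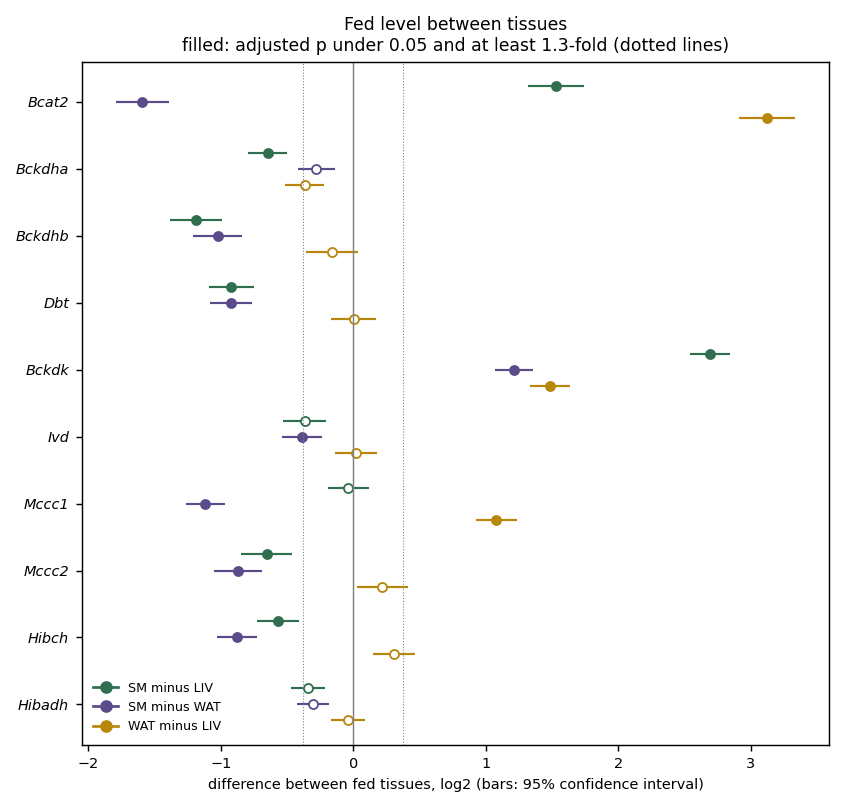
Difference between fed tissues on the log2 scale (x axis) with 95% confidence interval for the 10 genes (y axis). Bcat2 and Bckdk lie far above 0 in SM minus LIV and WAT minus LIV. Bckdha, Bckdhb, Dbt, Ivd, Mccc2, Hibch and Hibadh lie below 0 in both comparisons of SM, and Mccc1 does too but lies close to 0 (−0.04) in SM minus LIV.

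Counted over the list, fed SM minus fed LIV was called for 2 genes higher and 5 lower (26.2% and 21.8% of all genes), fed SM minus fed WAT for 1 higher and 7 lower (20.1% and 27.2%), and fed WAT minus fed LIV for 3 higher and 0 lower (25.7% and 18.7%). The medians of the 10 genes were −0.47, −0.87 and 0.12, against 0.05, 0.02 and 0.00 for all genes. The 15 other mitochondrial genes ran the other way in muscle: 12 of 15 were higher in fed SM than in fed LIV (median 0.84) and 13 of 15 higher in fed SM than in fed WAT (median 1.14), with 0 lower in either.

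Beyond these 10 genes, 23 other genes of the pathway, from transport to succinyl-CoA, were measured. In WAT 6 of 23 rose and 7 of 23 fell (7.99% and 7.75% of all genes), in SM 6 rose and 1 fell (7.8% and 5.78%), and in LIV 2 rose and 2 fell (3.53% and 4.01%). Their median changes were −0.18 in WAT, −0.08 in SM and 0.04 in LIV. Of 5 carriers, 3 rose in WAT and all 5 in SM, while 0 were called in LIV, where 7.99%, 7.8% and 3.53% of all genes rose: Slc43a1, a carrier of large neutral amino acids, lay between 10.82 and 11.18 in fasted SM and between 8.39 and 8.84 in fed SM, a change of 2.42 (SE 0.11, adjusted p 6.299e-15), and averaged 9.88 ± 0.22 in fasted WAT and 9.09 ± 0.19 in fed WAT, a change of 0.79. Slc3a2, the heavy chain of such transporters, rose by 0.47 in WAT and 0.40 in SM, Slc43a2 by 0.46 and 0.65, and Slc25a44, which carries branched-chain amino acids into mitochondria, by 0.44 in SM (−0.04 in WAT, adjusted p 0.8122). The fifth, Slc7a5, was called in SM at 0.38 (adjusted p 0.04625), on the edge of both thresholds.

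Downstream, 3 of 6 genes of the propionyl-CoA route, into which valine and isoleucine run, fell in WAT and 0 rose, where 7.75% of all genes fell and 7.99% rose: Pcca, the alpha subunit of propionyl-CoA carboxylase, by 0.68 (9.27 ± 0.11 in fasted WAT, 9.95 ± 0.08 in fed WAT), Mcee, methylmalonyl-CoA epimerase, by 0.73 (10.36 ± 0.18 and 11.10 ± 0.03), and Mmab, which adenosylates cobalamin for the mutase, by 0.55. Mmab also fell in LIV, by 1.19 (6.73 ± 0.31 in fasted LIV, 7.92 ± 0.12 in fed LIV). Bcat1, the cytosolic transaminase, fell by 0.74 in WAT to 4.36 ± 0.20, against 5.10 ± 0.21 in fed WAT. These are low levels, as the medians of the WAT arrays were 5.05 to 5.16. Dld fell by 0.75 in WAT (8.51 ± 0.17 and 9.26 ± 0.11). Auh of the leucine route fell by 0.48 and Acat1 of the isoleucine route by 0.41. Hsd17b10, an isoleucine route dehydrogenase, rose instead, by 0.72 in WAT and 0.60 in LIV, with −0.04 in SM (adjusted p 0.7569).

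The phosphatase that activates the complex moved in opposite directions in WAT and SM. Ppm1k averaged 7.92 ± 0.31 in fasted WAT and 7.39 ± 0.20 in fed WAT, a change of 0.52 (SE 0.14, adjusted p 0.004055), and 7.53 ± 0.30 in fasted SM and 8.15 ± 0.20 in fed SM, a change of −0.63 (SE 0.14, adjusted p 0.001612). The difference between these changes was 1.15 (SE 0.20, adjusted p 1.106e-04). In LIV Ppm1k was not called, with 10.01 ± 0.19 in fasted LIV and 9.70 ± 0.09 in fed LIV, its highest fed level among the tissues. The counterpart of Ppm1k, Bckdk, was not called in WAT, SM or LIV. Klf15, a transcription factor known in mouse muscle and heart to induce genes of this pathway, Bcat2 among them, rose in all 3 tissues, by 0.69 in WAT, 0.85 in SM and 0.64 in LIV. Mlxipl, the carbohydrate-responsive factor that in rat liver is known to act on the kinase and phosphatase genes, fell by 0.82 in LIV and had changes of −0.31 in WAT and −0.27 in SM that did not reach 1.3-fold.

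**Figure D4:**
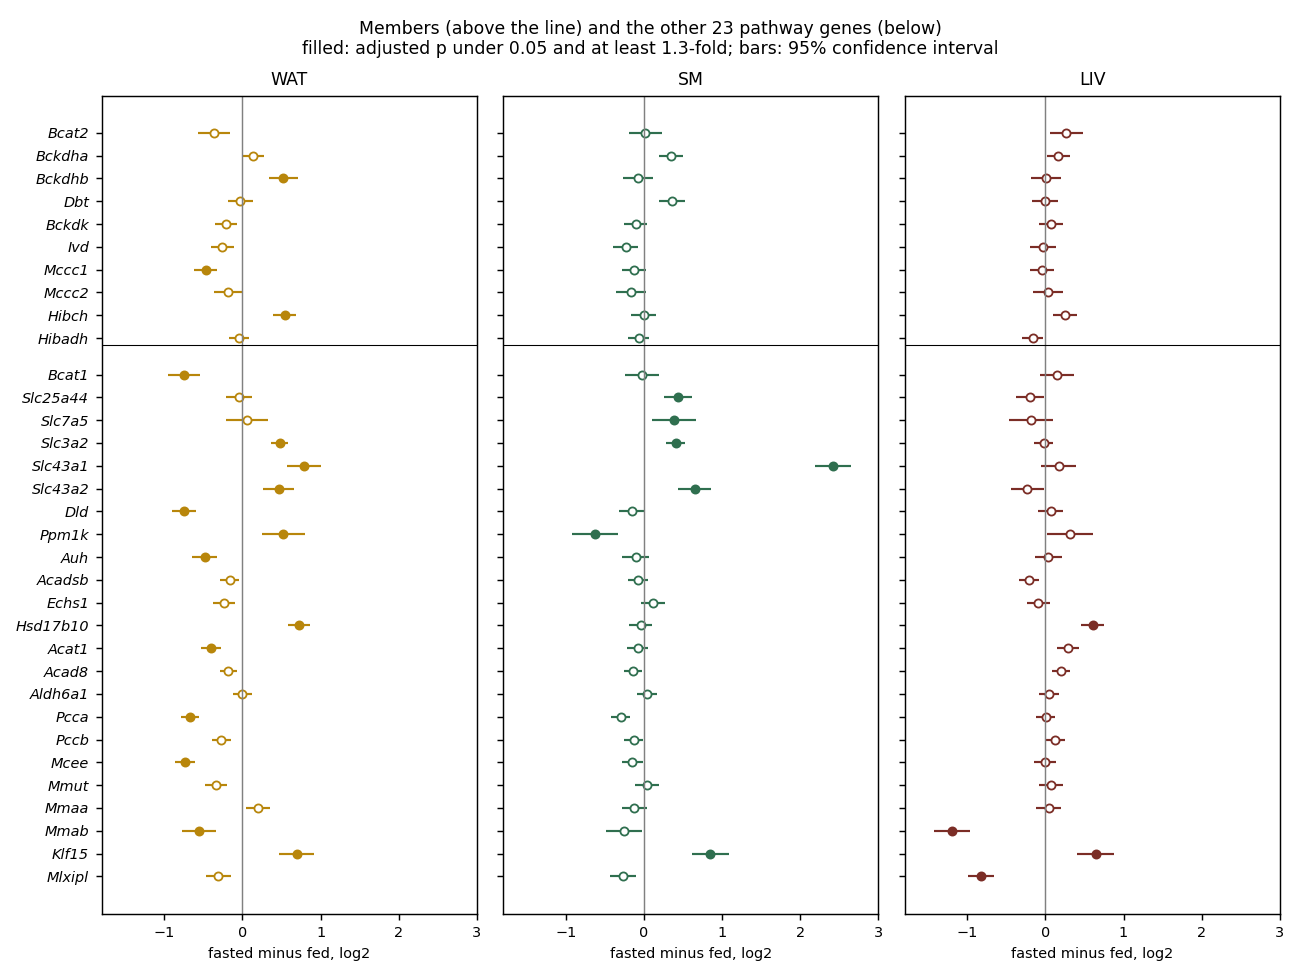
Fasted minus fed difference on the log2 scale (x axis) with 95% confidence interval in WAT, SM and LIV, for the 10 genes (above the line) and the other 23 genes of the pathway (below it), filled where called. Slc43a1 in SM lies farthest from 0, at 2.42, and Ppm1k lies above 0 in WAT and below 0 in SM.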

How the data were processed

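The authors made the deposited log2 values from the scanned arrays by RMA with default settings in Partek, which includes quantile normalization. Quantile normalization hides a change in the total mRNA of a tissue. The table holds 28815 probe sets on 30 arrays, 0 columns lacked a sample and 0 pairs of arrays were identical. The platform annotation names 1 gene for 21153 probe sets, several for 1867 and is silent on 5795. Where several probe sets named the same single gene, the brightest on average stood for it (18781 genes). A linear model with 6 group means was fitted over 28 arrays with limma 3.58.1 in R 4.3.3, with empirical Bayes variances (prior degrees of freedom 4.24). The p were adjusted over all probe sets of a contrast, and the procedure was tested on simulated data. The study's text names fasted SM 1 as the muscle array removed, whereas fasted SM 5 had the lowest correlation with its group and was left out here, with the removal of fasted SM 1 in its place as an alternative. Further alternatives were all 30 arrays, array weights, unmoderated variances, single tissues, replicate blocks, another normalization, filter or threshold, marker covariates in SM, and leaving out single arrays.

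The members and the lists were chosen with earlier results of these data known. Named were the 10 members, the other pathway genes called in at least 1 tissue (the 2 of smallest p if none was), and the 3 genes of highest Pearson r with each member. Promoter windows came from RefSeq (GRCm38.p6), which listed 11 for 9 members and none used here for Dbt. Precision is limited by having 4 or 5 arrays in a group, and the p measure only the spread between these biological replicates. Tables and figures were made in Python 3.11.15 with pandas 2.3.3 and matplotlib 3.10.9.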

Additional observations from a re-analysis of the deposited data

Results flagged for a closer look

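In 1 of the 60 sets of 4 or 5 arrays tested, 1 array lay far from the rest: Hibch in fasted WAT, where array 4 read 9.95 and the others 9.70 to 9.77, a gap of 0.719 of the whole range. Chance alone flags about 1 in 20 sets.

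A total of 6 fasting changes differed between tissues by the test of the difference itself. Between WAT and LIV these were Bcat2 (−0.63), Bckdhb (0.52) and Mccc1 (−0.43), and between WAT and SM they were Bckdhb (0.60), Dbt (−0.39) and Hibch (0.55), each given as the change in WAT minus the change in the other tissue.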

How the results depend on the processing

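Of 3680 single values of the 10 genes recomputed under the alternatives, 3604 kept their side of the threshold, 24 lost a call, 52 gained one and 0 called values changed direction. The other pathway genes, Ppm1k and the carriers among them, were not followed through the alternatives. Leaving out single arrays gave 2520 of these values. An array of a group outside a contrast cannot move its estimate, only its p, so the tally includes many values whose estimate was fixed. With no minimum fold the calls among the 10 genes were 6 in WAT (Bcat2, Bckdk and Ivd added), 1 in LIV (Hibch), 3 in SM (Bckdha, Dbt and Ivd), 1 for SM against LIV (Dbt) and 6 for fed WAT against fed LIV. At 1.5-fold they were 0 in WAT, 1 for WAT against LIV (Bcat2) and 1 for WAT against SM (Bckdhb). With fasted SM 1 left out in place of fasted SM 5, 1 gene (Dbt) differed between SM and LIV, and with the adipocyte covariate 1 (Dbt) was called in SM. Leaving out each of the 28 arrays gave 3 to 4 calls in WAT, 0 in LIV, 0 to 2 in SM, 2 to 5 for WAT against SM, 0 to 1 for SM against LIV, 3 to 4 for fed WAT against fed LIV, 7 to 9 for fed SM against fed LIV and 7 to 8 for fed SM against fed WAT, with 5 for WAT against SM without fed WAT 4. All 30 arrays added Bckdha to fed WAT against fed LIV (−0.47).

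Arrays of the same number in 2 groups had deviations that correlated between −0.25 and 0.18 over all probe sets. These pairs include fasted with fed arrays, which are different mice, and arrays of different numbers were not compared. The range thus cannot tell whether a number names a mouse. As the labels do not say so, the main fit did not pair the samples by number. With the replicate number within tissue as a block, 3 genes were called in WAT, 0 in LIV, 0 in SM, and 2 for WAT against SM, where Dbt was lost (−0.32, adjusted p 0.1051). The replicate number within each diet as a random block, as if it named a mouse, changed no call among the 10 genes. Other normalizations moved the median of all genes by less than 0.1 in each tissue. Quantile normalization over all arrays lost Dbt for WAT against SM (−0.37) and added Hibch for fed WAT against fed LIV (0.42) and Bckdha for fed SM against fed WAT (−0.38). Array weights (−0.40) and the removal of dim probe sets (−0.38) each added Bcat2 for WAT against SM. On the array, Hibadh also had 2 dim probe sets (means 4.44 and 3.88, against 11.59 for the one used), and averaging its probe sets changed no call. Its estimates were less steady: over all alternatives, fed SM minus fed WAT ran from −0.365 to 0.15, against −0.31 in the main fit. Mccc1 had a further dim probe set (mean 3.70) that also names Mccc1os and was not used.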

Other observations

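The 3 genes whose values followed a member most closely over the 28 arrays are given with their Pearson r. For Bcat2 they were Chn1 (0.988), Ppp1r9b (0.987) and Clstn1 (0.987), and for Bckdha Fam160b1 (0.948), Prkab1 (0.937) and Scyl3 (0.936). For Bckdhb they were Bag4 (0.980), Tgoln1 (0.975) and Klb (0.974), and for Dbt Ubqln1 (0.963), Rnf4 (0.953) and Cat (0.95). For Bckdk they were Pkm (0.996), Acyp2 (0.995) and Limch1 (0.995), and for Ivd Arap2 (0.905), Rtp4 (0.903) and Nnmt (0.902). For Mccc1 they were Arxes1 (0.974), Slc5a3 (0.972) and B4galt6 (0.971), and for Mccc2 Pgrmc2 (0.962), Plcb1 (0.959) and Ldah (0.957). For Hibch they were Acss3 (0.965), Peli2 (0.962) and Pex3 (0.959), and for Hibadh P2ry13 (0.890), Zfp983 (0.886) and Socs4 (0.883). These arrays fall into 3 tissues, so r follows the tissue levels and is given as a description. Between members, r over the 28 values was 0.92 for Bckdhb and Hibch, 0.90 for Bckdhb and Mccc2, 0.90 for Bckdhb and Dbt and −0.85 for Bckdha and Bckdk. After each group's mean was subtracted, r over the same 28 arrays was 0.79 for Bckdhb and Mccc2, 0.76 for Bckdhb and Dbt and 0.73 for Bckdhb and Ivd, and 0.04 for Bckdha and Bckdk.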
